A study of Mus musculus with 8 samples.

Results

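Interferon response and antigen presentation genes were followed in mouse small intestinal organoids, which are epithelial cultures grown in Matrigel and made up of stem, absorptive and secretory cells. The set was chosen by name and comprises 41 genes, from antiviral effectors and interferon-induced transcription factors to the proteasome subunits, transporters and chains that present peptides on class I and class II molecules. Probes of 38 of them were matched through RefSeq accessions, and 34 passed the filter, a sample-dye spot well above background on each array of some group, and were tested, of 19255 genes tested in all. No probe was matched to Mx1, Mx2 or H2-Eb1, which are not analysed here. Oas2, Gbp3, H2-Aa and Ciita, the class II transactivator, had probes that were not above background on both arrays of any group. Of the 34 genes tested, 29 were above background on all 8 arrays. The other 5, Ifit1, Ifit3, Rsad2, Usp18 and Cd74, were above background on 5 to 7 arrays. Of these, Rsad2 passed the filter only through the combination and VPA groups. Ifit1 was above background on no array of the combination, so no fold is given for it there.

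Interferons bind receptors on the cell surface that switch on JAK kinases. Type I and type III interferons act through a complex with STAT2 and IRF9 that binds the interferon-stimulated response element (ISRE), whereas interferon gamma acts at gamma-activated sites (GAS). The induced genes include proteins that block viruses at entry, replication and release. Many of them also feed the class I pathway, in which proteasomes cut proteins to peptides, the TAP transporter carries the peptides into the endoplasmic reticulum and tapasin helps to load them onto class I molecules. Class II molecules are found mainly on antigen-presenting leukocytes, and intestinal epithelium can make them too.

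The groups were organoids given both 3 µM CHIR99021 and 1 mM valproic acid (VPA), organoids given 3 µM CHIR99021, organoids given 1 mM VPA, and control organoids without either compound, all wild type and all kept for 6 days after seeding. CHIR99021 inhibits the kinase GSK3 and thereby activates beta-catenin, and VPA inhibits histone deacetylases. Every group had 2 arrays, 1 for each of 2 organoid lines that had been derived separately. In the fit of the 4 groups, p-values therefore measure the spread between 2 lines. On each array the sample was labelled with Cy5 and control RNA of the same line with Cy3, without a dye swap, and values are log2 ratios of Cy5 over Cy3. Control arrays therefore set control RNA against control RNA, and comparisons with control subtract what those arrays read. The labels name no interferon treatment in any group. A gene is said to have risen or fallen where its adjusted p-value in limma, with Benjamini-Hochberg adjustment over all 19255 genes, was under 0.05.

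Between 59.4% and 63.2% of the spots were well above background in Cy5, and no spot was saturated. Summed brightness of markers, below, is background-corrected Cy5 with the offset of 50 added for each gene, not normalised between arrays. In dim lists, such as the leukocyte and tuft cell markers, that constant is a large part of the sum and makes groups look more alike. All 6 epithelial markers (Epcam, Cdh1, Vil1, Krt8, Krt19 and Cdx2) were measured, with summed Cy5 brightness of 375790 to 421091 with the combination, 387790 to 430210 with CHIR99021, 430804 to 450620 with VPA and 550336 to 617029 in control. Of these, 1 rose and 2 fell with the combination, 1 fell with CHIR99021 and 1 fell with VPA. In the same comparisons with control 15.5%, 1.12% and 10.9% of all genes passed. Of 18 leukocyte markers 10 passed the filter, with a mean log2 ratio between -0.02 and 0.12 on every array, and Cd3g, Cd8a, Ms4a1, Itgam, Itgax, Tyrobp and Laptm5 were not above background. The summed brightness of the 10 was 1530 to 1584 with the combination, 1334 to 1395 with CHIR99021, 1398 to 1434 with VPA and 1514 to 1554 in control. Of 7 fibroblast markers 4 were tested and Col3a1, Dcn and Thy1 were not above background. Col1a1 rose by 1.01 ± 0.14 with the combination (adjusted p of 0.0067) and by 0.79 ± 0.14 with VPA (adjusted p of 0.0217), and Col1a2, Pdgfra and Pdgfrb did not pass. Of 5 endothelial markers Vwf was tested and fell by 0.36 with the combination (SE 0.09, adjusted p of 0.0457). Markers of the differentiated epithelium moved with the groups. The 4 goblet cell markers had summed brightness of 29450 to 42046 with the combination, 97974 to 114003 with CHIR99021, 61457 to 104319 with VPA and 142643 to 171343 in control. The 4 Paneth cell markers summed to 31732 to 77223, 117771 to 278075, 35899 to 190607 and 79345 to 209893 in the same order of groups. The 6 enterocyte markers summed to 42417 to 45955 with the combination, 92746 to 100006 with CHIR99021, 265459 to 306499 with VPA and 225587 to 301408 in control. The 3 M cell markers tested summed to 594 to 1111 with the combination, 1430 to 4343 with CHIR99021, 652 to 2423 with VPA and 2595 to 5342 in control. The 3 tuft cell markers tested summed to 328 to 352, 433 to 633, 451 to 502 and 607 to 1560 in that order. The part of these shifts in the results below was not tested, and in RNA from whole organoids fewer cells of a type cannot be told apart from less RNA per cell.

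The largest changes in the set, as means over the 2 lines, went in opposite directions. By that mean, Bst2, the tether that holds budding virus on the cell surface, rose the most with the combination and with VPA against control. Psmb10, a catalytic subunit of the immunoproteasome, fell the most. In line 1 alone H2-Ab1 rose more than Bst2, by 2.97 against 2.23 with the combination and 2.93 against 1.52 with VPA. With the combination, 7 of the 34 genes tested rose and 1 fell, where 15.5% of all genes passed, 8.43% higher and 7.09% lower. Ifitm1, Ifitm2, Ifit2, Rsad2, Bst2, Tap2 and H2-K1 rose and Psmb10 fell. Of the 7, Rsad2 passed the filter only through the groups given VPA. With CHIR99021 alone none of the 34 passed the threshold in limma, where 1.12% of all genes did (0.114% higher and 1.01% lower). An unadjusted p under 0.05 was found for 6 of the 34, beside 2472 of all 19255 genes. With VPA alone, Ifit2, Bst2 and H2-K1 rose and Psmb10 fell, 4 of 34 genes where 10.9% of all genes passed, 6.58% higher and 4.27% lower. The 3 comparisons share the control arrays. Median log2 differences over the 34 genes were 0.13 for the combination, -0.02 for CHIR99021 and 0.08 for VPA, beside 0.0065, 0.0083 and -0.00041 over all genes. These counts depended on single arrays. Without the control array of line 1 or of line 2, fewer of the 34 passed for the combination and for VPA. Some calls, such as that of H2-K1 with VPA, were also lost without a CHIR99021 array, which is not in the comparison. The share of all genes that passed in those fits is not given here, so the losses are not particular to these genes as far as shown.

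**Figure D1:**
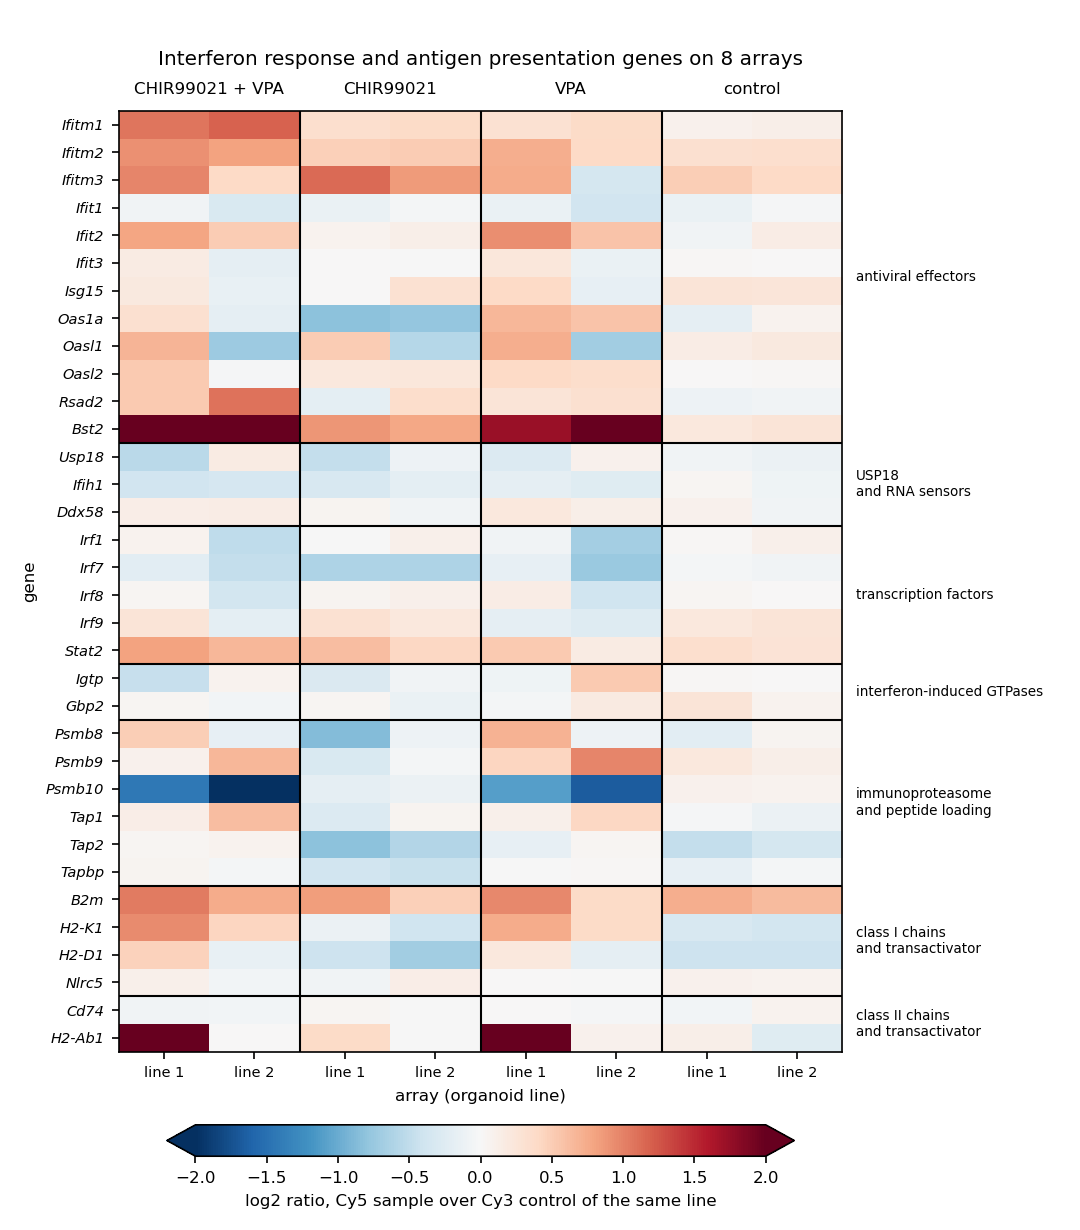
Log2 ratio of sample (Cy5) over control RNA of the same organoid line (Cy3) for the 34 genes tested (rows, by role) on the 8 arrays (columns, by group and line); colours stop at -2 and 2, so darker values can lie beyond. Bst2 is dark red on the combination and VPA arrays of both lines, Psmb10 is blue on the same arrays, and H2-Ab1 is dark red on 2 arrays of line 1 and near 0 on those of line 2.

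Setting the combination against each single compound separated the genes further. Against CHIR99021 alone, 6 of the 34 rose with the combination and 1 fell, where 10% of all genes passed, 6.21% higher and 3.81% lower. Ifitm1, Oas1a, Bst2, Tap2, Tapbp and H2-K1 rose and Psmb10 fell. Against VPA alone, Ifitm1 rose and no other member passed, where 1.12% of all genes did and 0.0883% were higher. The departure of the combination from the sum of the single compounds passed for 0 of 34 members and 0% of all genes in limma. Of the 34, 2 had an unadjusted p under 0.05 in that test, as had 511 of all 19255 genes. The 2 were Ifitm1 at a log2 departure of 0.52 ± 0.12 (SE) and Irf7, a factor that amplifies interferon production, at 0.67 ± 0.27. In all, 10 of the 34 genes passed in at least 1 of the 6 comparisons and 24 in none. The share of all genes that passed in at least 1 comparison was not counted, so no background stands beside these 2 counts.

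**Figure D2:**
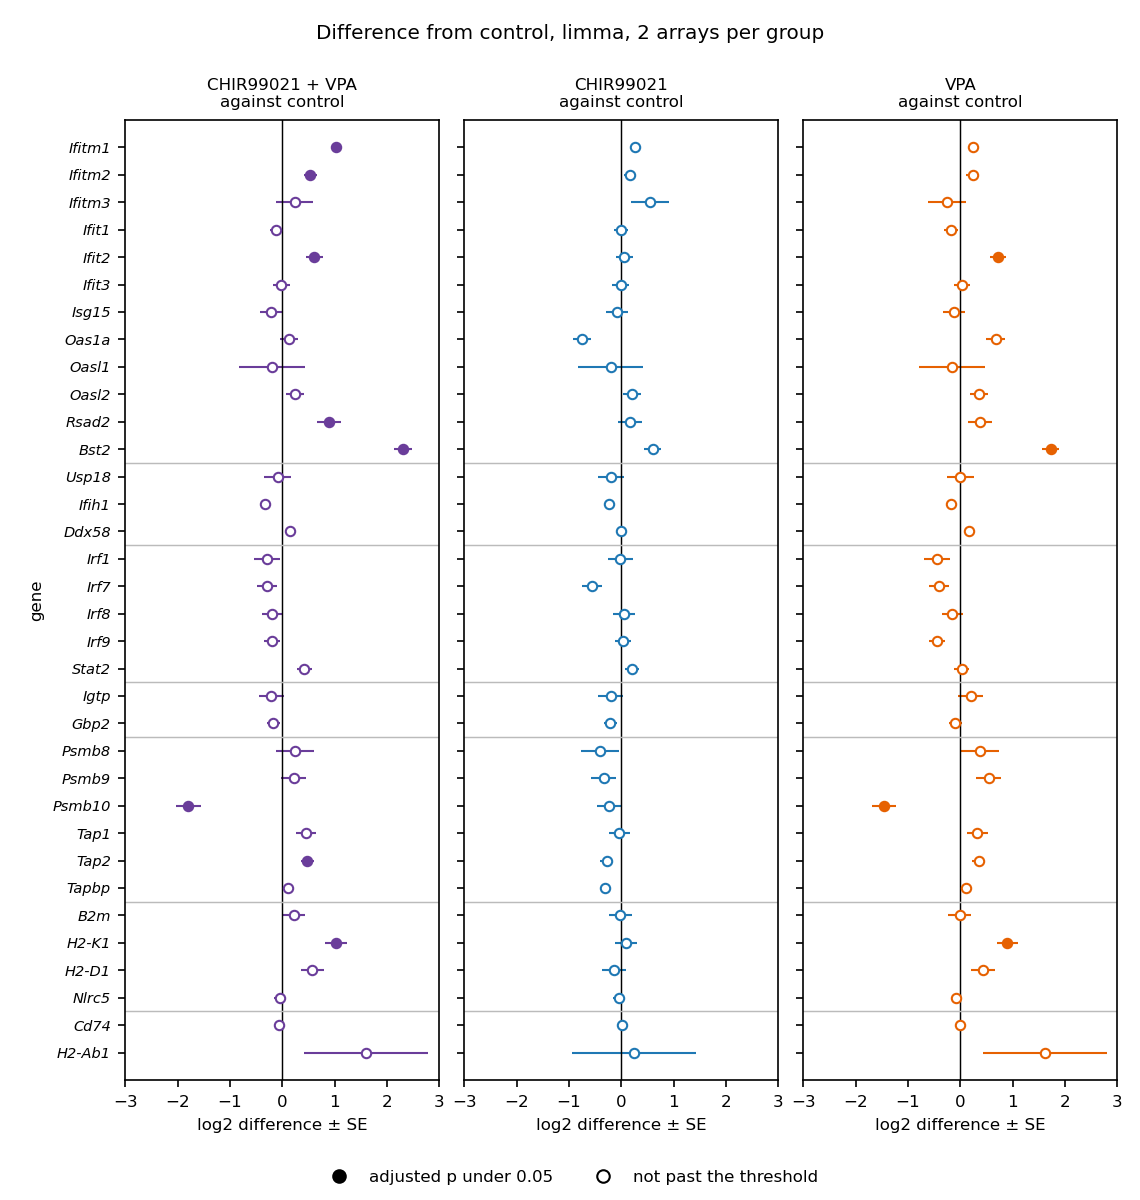
Log2 difference from control with its standard error for each of the 34 genes (rows, in the order of the heat map, grey lines between roles), in 1 panel each for the combination, CHIR99021 and VPA, 2 arrays per group; filled points passed an adjusted p of 0.05. Filled points number 8 with the combination, 0 with CHIR99021 and 4 with VPA, and the wide bars of H2-Ab1 reflect arrays of 2 lines that differ.

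Promoter sequences are shown for genes that passed and for some that did not, to set the interferon elements beside the values. RefSeq promoter windows (build GRCm38.p6), from 250 bases before to 50 bases after the start, were at hand for 32 of the 41 genes and for 27025 genes in all. The ISRE core, a pair of GAAA blocks with any NN between them, searched on both strands, was present for 15 of the 32 genes (46.9%), against 3.99% of all genes with a window. It was found for 4 of the 9 genes with a window that passed in some comparison (44.4%) and for 10 of the 20 tested genes with a window that passed in none (50%). Only exact matches were counted, so a window without the core can still hold a near match. The core GAS motif TTCNNNGAA was present for 8 of the 32 (25.0%), against 9.55% of all genes. In the windows below capitals mark the ISRE core on either strand; matches can overlap one another, as they do for Bst2 and Isg15, and a GAS match overlaps the ISRE in Bst2. Bst2, Rsad2 and Ifitm2 are shown as genes that rose with the combination and hold the core, and Isg15 as one that holds it and did not pass in any comparison. Ifitm1, which rose, and Psmb10, which fell, are shown because no core is in their windows.
Bst2, chr8:71537423-71537722, minus strand: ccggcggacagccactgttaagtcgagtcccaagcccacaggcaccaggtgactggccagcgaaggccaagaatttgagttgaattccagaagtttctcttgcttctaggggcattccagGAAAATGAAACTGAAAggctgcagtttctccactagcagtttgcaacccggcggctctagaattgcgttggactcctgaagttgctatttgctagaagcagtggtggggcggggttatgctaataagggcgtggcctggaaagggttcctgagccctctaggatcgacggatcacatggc
Rsad2, chr12:26456403-26456702, minus strand: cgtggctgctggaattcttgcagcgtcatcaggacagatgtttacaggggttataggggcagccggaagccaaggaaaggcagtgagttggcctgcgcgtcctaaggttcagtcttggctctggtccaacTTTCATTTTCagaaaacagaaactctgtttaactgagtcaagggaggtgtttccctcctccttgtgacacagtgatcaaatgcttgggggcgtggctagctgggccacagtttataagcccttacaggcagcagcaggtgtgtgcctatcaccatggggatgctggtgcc
Ifitm2, chr7:140955912-140956211, minus strand: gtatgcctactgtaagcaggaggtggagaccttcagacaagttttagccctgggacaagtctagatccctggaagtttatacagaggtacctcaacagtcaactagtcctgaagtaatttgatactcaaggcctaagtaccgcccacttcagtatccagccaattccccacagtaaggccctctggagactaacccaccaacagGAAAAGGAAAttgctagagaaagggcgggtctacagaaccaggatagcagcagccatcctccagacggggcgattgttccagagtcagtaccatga
Isg15, chr4:156200769-156201068, minus strand: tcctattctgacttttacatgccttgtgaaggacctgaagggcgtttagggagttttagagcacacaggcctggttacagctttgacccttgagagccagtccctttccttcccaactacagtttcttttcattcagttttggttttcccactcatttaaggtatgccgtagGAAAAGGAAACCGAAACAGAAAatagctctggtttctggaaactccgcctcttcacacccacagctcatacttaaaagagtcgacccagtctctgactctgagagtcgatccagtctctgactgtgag
Ifitm1, chr7:140967826-140968125, plus strand: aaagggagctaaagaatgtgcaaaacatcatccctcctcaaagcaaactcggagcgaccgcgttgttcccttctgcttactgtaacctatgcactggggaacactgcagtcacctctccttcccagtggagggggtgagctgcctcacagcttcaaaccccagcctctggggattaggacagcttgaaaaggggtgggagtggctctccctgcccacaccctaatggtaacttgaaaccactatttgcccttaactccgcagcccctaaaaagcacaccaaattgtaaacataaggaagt
Psmb10, chr8:105938343-105938642, minus strand: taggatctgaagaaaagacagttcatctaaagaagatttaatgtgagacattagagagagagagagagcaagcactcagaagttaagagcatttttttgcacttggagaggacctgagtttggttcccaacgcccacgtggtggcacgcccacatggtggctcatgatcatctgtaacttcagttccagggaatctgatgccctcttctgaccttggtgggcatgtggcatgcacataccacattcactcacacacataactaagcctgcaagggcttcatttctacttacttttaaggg

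Antiviral effectors held the largest rise in the mean over lines. Of the 12 tested, 5 rose with the combination, 0 with CHIR99021 and 2 with VPA, where 8.43%, 0.114% and 6.58% of all genes rose, and none fell. The 5 include Rsad2, which passed the filter only through the groups given VPA. Bst2 had log2 ratios of 2.43 and 2.66 with the combination in lines 1 and 2, 0.89 and 0.78 with CHIR99021, 1.72 and 2.20 with VPA, against 0.21 and 0.26 in control. All 6 treated arrays lay above both control arrays, and each pair of arrays stood apart from the next pair. Against control the combination was 4.96-fold higher (log2 difference 2.31 ± 0.17 SE, n = 2 each, limma adjusted p of 0.00089) and VPA 3.31-fold higher (1.73 ± 0.17, adjusted p of 0.0035). CHIR99021 differed from control by 0.60 ± 0.17 (adjusted p of 0.197). The combination was also above CHIR99021, by 1.71 ± 0.17 (adjusted p of 0.0037), and its 0.58 ± 0.17 over VPA did not pass (adjusted p of 0.191). With each of the 8 arrays left out in turn the difference between the combination and control stayed between 2.20 and 2.42 and within the threshold. The call for VPA was lost without either control array, at 1.70 without that of line 1 (adjusted p of 0.0600) and 1.76 without that of line 2 (adjusted p of 0.0507).

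Of the genes for IFITM proteins, which hinder the fusion of enveloped viruses with endosomes, Ifitm1 and Ifitm2 passed and Ifitm3 did not. Ifitm1 had log2 ratios of 1.07 and 1.18 with the combination, 0.33 and 0.38 with CHIR99021, 0.30 and 0.39 with VPA, against 0.09 and 0.11 in control (lines 1 and 2). Both combination arrays lay above all others, and the arrays of the single compounds overlapped each other. The combination exceeded control by 1.03 ± 0.09 (adjusted p of 0.0015), CHIR99021 by 0.77 ± 0.09 (adjusted p of 0.0059) and VPA by 0.78 ± 0.09 (adjusted p of 0.0219). The first of these held without any 1 array (0.97 to 1.08). The second was lost without the CHIR99021 array of line 1 (0.75, adjusted p of 0.0505), and that over VPA without any 1 of the 8 arrays (0.73 to 0.83, adjusted p up to 0.102). Ifitm2 had 0.92 and 0.80 with the combination, 0.48 and 0.50 with CHIR99021, 0.72 and 0.41 with VPA, against 0.31 and 0.34 in control. It rose by 0.54 ± 0.12 with the combination (adjusted p of 0.0294), and its second probe gave 0.61. That call was lost without any 1 control, CHIR99021 or combination array (0.48 to 0.60, adjusted p up to 0.176). Ifitm3 differed from control by 0.24 ± 0.36 with the combination, by 0.55 ± 0.36 with CHIR99021 and by -0.25 ± 0.36 with VPA, with adjusted p of 0.615 to 0.723, and its ratios with VPA were 0.74 in line 1 and -0.35 in line 2. Probes of this family may share transcripts, since its coding sequences are close to one another.

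Of the IFIT family, cytoplasmic proteins that bind foreign RNA, Ifit2 alone passed. Its log2 ratios were 0.78 and 0.51 with the combination, 0.06 and 0.12 with CHIR99021, 0.94 and 0.57 with VPA, against -0.07 and 0.14 in control. The 4 arrays with VPA lay above the 4 without it. Differences from control were 0.61 ± 0.16 with the combination (adjusted p of 0.0464) and 0.72 ± 0.16 with VPA (adjusted p of 0.0365). Spots were dim, with background-subtracted Cy5 brightness of 118 to 188 with the combination, 55 to 83 with CHIR99021, 102 to 226 with VPA and 44 to 56 in control. The size of the rise differed with the background step. Agilent's own ratio put it at 1.77 with the combination (adjusted p of 0.0466) and 1.79 with VPA (adjusted p of 0.0593). The mean with a second, dimmer probe put it at 0.28 and 0.38 (adjusted p of 0.237 and 0.145). Both calls were also lost without any 1 array of control, of CHIR99021 or, in line 1, of the treatment compared (adjusted p up to 0.264). Ifit1 ratios lay between -0.38 and -0.02 on the 8 arrays and Ifit3 ratios between -0.19 and 0.23. Isg15, the ubiquitin-like protein attached to other proteins after interferon, had ratios of 0.19 and -0.14 with the combination, 0.01 and 0.30 with CHIR99021, 0.40 and -0.16 with VPA, against 0.25 and 0.23 in control, so its groups overlapped.

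Rsad2, which encodes the antiviral enzyme viperin, rose by 0.90 ± 0.23 with the combination (adjusted p of 0.0437), which lay 0.73 ± 0.23 above CHIR99021 (adjusted p of 0.0982, and 0.0259 with the line as a block). Its ratios were 0.53 and 1.09 with the combination, -0.20 and 0.35 with CHIR99021, 0.26 and 0.33 with VPA, against -0.11 and -0.07 in control. The control array of line 1 and the CHIR99021 array of line 1 did not measure it above background, and 2 further probes gave 0.36 and 0.22 for the same difference. Rsad2 thus entered the test only through the combination and VPA groups, whose means were the highest, so its call is tied to the filter. Agilent's own ratio put the rise at 2.80 (adjusted p of 0.0292) and the mean of the probes at 0.49 (adjusted p of 0.0613). The call was lost without any 1 control or VPA array or the combination array of line 2 (0.61 to 0.92, adjusted p up to 0.216). Oas1a, whose enzyme makes the messenger that activates RNase L, lay on opposite sides of control with the 2 compounds and passed for neither. It had 0.32 and -0.18 with the combination, -0.83 and -0.78 with CHIR99021, 0.66 and 0.58 with VPA, against -0.18 and 0.07 in control. CHIR99021 lay below control by -0.75 ± 0.17 (adjusted p of 0.131) and VPA above it by 0.67 ± 0.17 (adjusted p of 0.0555, and 0.0383 with the organoid line as a block). The combination was above CHIR99021 by 0.87 ± 0.17 (adjusted p of 0.0279), a call lost without any 1 control or CHIR99021 array or the combination array of line 1 (0.62 to 0.90, adjusted p up to 0.140). With the background model fitted on all spots that difference was 0.57 (adjusted p of 0.179). Oas genes are near copies of one another, so a probe can read more than 1 of them. Oasl2 differed from control by 0.21 to 0.36 in the 3 groups, with adjusted p of 0.239 to 0.719.

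**Figure D3:**
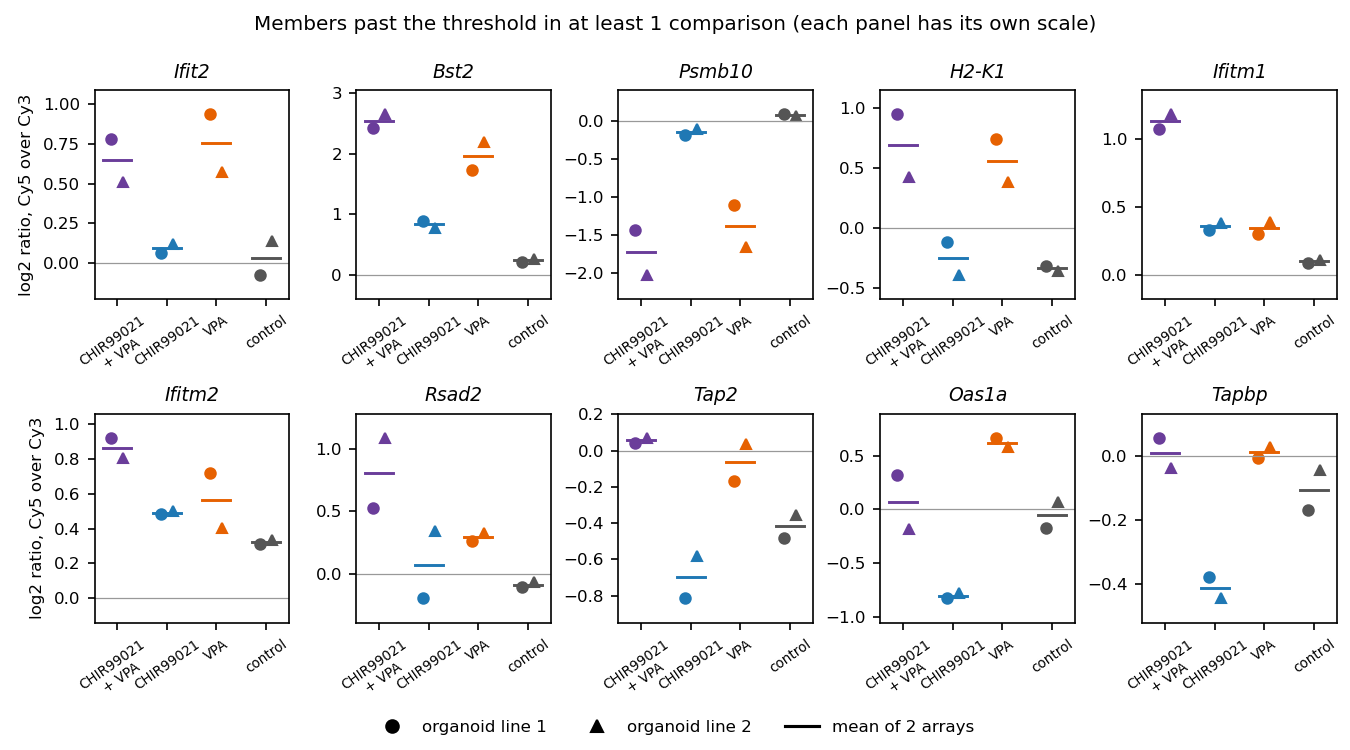
Log2 ratios on each array for the 10 genes that passed in at least 1 comparison, by group (columns), with circles for organoid line 1, triangles for line 2 and bars for the mean of the 2 arrays; each panel has its own vertical scale. Bst2 and Psmb10 separate the arrays with VPA from those without it, Ifitm1 stands out with the combination at 1.07 and 1.18, and Oas1a is lowest with CHIR99021 at -0.83 and -0.78.

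None of the sensors and transcription factors tested passed in any comparison. Of all genes, 15.5% passed against control with the combination, 1.12% with CHIR99021 and 10.9% with VPA. Ifih1 (MDA5), which detects long double-stranded RNA, had ratios of -0.39 and -0.34 with the combination, -0.32 and -0.19 with CHIR99021, -0.19 and -0.24 with VPA, against 0.03 and -0.09 in control. All 6 treated arrays lay below the control arrays, and the combination differed by -0.33 ± 0.09 (adjusted p of 0.0601, and 0.0461 with the line as a block). Ddx58 (RIG-I) stayed between -0.07 and 0.21 on the 8 arrays. Usp18, which strips ISG15 from proteins and dampens the receptor, had -0.54 and 0.17 with the combination, -0.48 and -0.10 with CHIR99021, -0.28 and 0.09 with VPA, against -0.07 and -0.12 in control. Stat2, the signalling partner of IRF9, had 0.80 and 0.66 with the combination, 0.61 and 0.41 with CHIR99021, 0.52 and 0.16 with VPA, against 0.34 and 0.28 in control. Its difference of 0.42 ± 0.14 with the combination did not pass (adjusted p of 0.0961, and 0.0234 with the line as a block).

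Irf9 had 0.26 and -0.20 with the combination, 0.30 and 0.21 with CHIR99021, -0.18 and -0.25 with VPA, against 0.21 and 0.25 in control, and VPA lay -0.45 ± 0.15 from control (adjusted p of 0.117). Irf7 had -0.20 and -0.48 with the combination, -0.62 and -0.61 with CHIR99021, -0.17 and -0.74 with VPA, against -0.05 and -0.07 in control. Every treated array of Irf7 lay below both control arrays, with differences of -0.29 ± 0.19, -0.56 ± 0.19 and -0.40 ± 0.19 and adjusted p of 0.244 to 0.378. Irf1, an activator of class I and immunoproteasome genes, read -0.51 and -0.68 on the combination and VPA arrays of line 2 and between -0.07 and 0.10 on the other 6. Irf8 followed a like pattern, at -0.37 and -0.40 on those 2 arrays and between 0.01 and 0.15 on the rest. Of the interferon-induced GTPases, which attack the vacuoles of intracellular microbes, Igtp had -0.46 and 0.08 with the combination, -0.29 and -0.08 with CHIR99021, -0.09 and 0.52 with VPA, against 0.03 and 0.01 in control. Gbp2 ratios spanned -0.13 to 0.26 on the 8 arrays. Neither passed, with adjusted p of 0.423 or more in the comparisons with control.

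The interferon pathway list that stands beside the set, of ligands, receptors, kinases and their regulators, held 26 genes, of which 20 were tested. Ifnb1, Ifna4, Ifng, Ifnl3 and Ifnk, genes for interferons themselves, were not above background on both arrays of any group. With the combination 2 of the 20 rose and 2 fell, and with VPA 1 rose and 1 fell, shares of 20% and 10% beside 15.5% and 10.9% of all genes. Socs1, an inhibitor of JAK kinases, had 0.70 and 0.47 with the combination, -0.13 and -0.07 with CHIR99021, 0.90 and 0.74 with VPA, against -0.12 and 0.17 in control. It rose by 0.56 ± 0.14 with the combination (adjusted p of 0.0374) and by 0.79 ± 0.14 with VPA (adjusted p of 0.0180). Ptpn2, a phosphatase that removes phosphate from JAK and STAT proteins, fell by 0.54 with the combination (SE 0.08, adjusted p of 0.0089) and fell by 0.71 with VPA (SE 0.08, adjusted p of 0.0057). Jak1 rose by 0.63 ± 0.17 (adjusted p of 0.0489) and Irf2, a repressor of interferon-induced promoters, fell by 1.18 (SE 0.28, adjusted p of 0.0350), both with the combination.

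Among 19 sensors and adaptors tested, Nod1, a receptor for bacterial cell wall fragments, was the single gene that passed against control. That is 5.26% of the list with the combination and with VPA, beside 15.5% and 10.9% of all genes. Nod1 rose by 0.67 ± 0.09 with the combination (adjusted p of 0.0051) and by 0.54 ± 0.09 with VPA (adjusted p of 0.0154). Of 30 other interferon-induced genes tested, 4 rose and 2 fell with the combination, none passed with CHIR99021, and 2 rose and 1 fell with VPA. Ifi27 had log2 ratios of 2.10 and 1.74 with the combination, 0.06 and 0.02 with CHIR99021, 1.69 and 2.10 with VPA, against 0.42 and 0.43 in control. The arrays with VPA lay above those without it, by 1.49 ± 0.17 for the combination (adjusted p of 0.0031) and 1.47 ± 0.17 for VPA alone (adjusted p of 0.0052). Sp100, a nuclear body protein that was above background on 1 of the 2 control arrays, rose by 0.49 ± 0.11 with the combination (adjusted p of 0.0308) and by 1.08 ± 0.11 with VPA (adjusted p of 0.0041). Uba7, the enzyme that activates ISG15, fell by 1.51 with the combination (SE 0.25, adjusted p of 0.0107). With the combination Znfx1 also rose, by 0.43 ± 0.11 (adjusted p of 0.0424), and with VPA the chemokine gene Ccl5 fell by 0.41 (SE 0.10, adjusted p of 0.0467). The share of these 30 genes that passed was 20% with the combination and 10% with VPA, beside 15.5% and 10.9% of all genes.

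Of the 3 immunoproteasome subunits, Psmb10 fell and Psmb8 and Psmb9 did not pass. Of the 6 genes tested for peptide supply and loading, 1 rose and 1 fell with the combination, 0 passed with CHIR99021 and 1 fell with VPA, where 15.5%, 1.12% and 10.9% of all genes passed. Psmb10 had log2 ratios of -1.43 and -2.02 with the combination, -0.18 and -0.12 with CHIR99021, -1.11 and -1.66 with VPA, against 0.09 and 0.06 in control. Its 4 arrays with VPA lay below the 4 without it. Relative to control it was 3.48-fold lower with the combination (-1.80 ± 0.24, adjusted p of 0.0050) and 2.75-fold lower with VPA (-1.46 ± 0.24, adjusted p of 0.0152). Relative to CHIR99021 the combination lay at -1.57 ± 0.24 (adjusted p of 0.0125). The calls against control were lost without either control array, at -1.79 and -1.81 for the combination (adjusted p of 0.0545 and 0.0519) and -1.45 and -1.47 for VPA (adjusted p of 0.128 and 0.118). That against CHIR99021 was lost without either CHIR99021 array, at -1.61 and -1.54 (adjusted p of 0.0751 and 0.0872). Psmb9, the subunit that replaces Psmb6 in the immunoproteasome, had 0.09 and 0.67 with the combination, -0.31 and -0.05 with CHIR99021, 0.44 and 0.97 with VPA, against 0.21 and 0.12 in control, and did not pass (adjusted p of 0.22 to 0.657). The constitutive proteasome list, which includes Psmb5, Psmb6 and Psmb7, had 0 of 10 genes past the threshold in any of the 6 comparisons, with differences of -0.15 to 0.59 for the combination. In that list 1 gene had an unadjusted p under 0.05 with the combination and 0 with either single compound. Of all 19255 genes, 5707 did with the combination, 2472 with CHIR99021 and 5006 with VPA.

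Tap2, a chain of the peptide transporter, had 0.04 and 0.07 with the combination, -0.82 and -0.58 with CHIR99021, -0.17 and 0.04 with VPA, against -0.48 and -0.35 in control. It was higher with the combination than with CHIR99021 by 0.76 ± 0.12 (adjusted p of 0.0149) and than control by 0.48 ± 0.12 (adjusted p of 0.0440). VPA alone lay 0.35 ± 0.12 above control (adjusted p of 0.121, and 0.0386 with the line as a block). The control arrays themselves read below 0, and the combination's ratio tested against 0 was 0.06 (adjusted p of 0.634). The call against control was lost without any 1 control, CHIR99021 or combination array (0.41 to 0.54, adjusted p up to 0.253). The call against CHIR99021 was lost without either CHIR99021 array or the combination array of line 1 (0.64 to 0.87, adjusted p up to 0.0916), and was 0.42 with the background model fitted on all spots (adjusted p of 0.163). Its partner Tap1 had 0.14 and 0.61 with the combination, -0.28 and 0.05 with CHIR99021, 0.10 and 0.41 with VPA, against -0.03 and -0.12 in control (0.45 ± 0.20 for the combination, adjusted p of 0.188). Tapbp, which encodes tapasin, had 0.06 and -0.04 with the combination, -0.38 and -0.45 with CHIR99021, -0.01 and 0.03 with VPA, against -0.17 and -0.05 in control. The combination exceeded CHIR99021 by 0.42 ± 0.09 (adjusted p of 0.0365), a call lost without any 1 control, CHIR99021 or combination array (0.37 to 0.47, adjusted p up to 0.193). In this role all 6 genes read below control with CHIR99021, at -0.04 to -0.41, where 51.9% of all genes read above it, and none passed.

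Of the 4 genes tested for class I chains and their transactivator, H2-K1 rose and the others did not pass. H2-K1, a classical heavy chain, had log2 ratios of 0.95 and 0.43 with the combination, -0.12 and -0.39 with CHIR99021, 0.74 and 0.38 with VPA, against -0.32 and -0.36 in control. The 4 arrays with VPA lay above the 4 without it. Differences from control were 1.03 ± 0.21 with the combination (adjusted p of 0.0199) and 0.90 ± 0.21 with VPA (adjusted p of 0.0397), and the combination exceeded CHIR99021 by 0.94 ± 0.21 (adjusted p of 0.0368). Its 2 other probes gave smaller rises, 0.82 and 0.52 with the combination and 0.38 and 0.32 with VPA, and with the mean of the probes VPA no longer passed (0.54, adjusted p of 0.117). The call for the combination was lost without either control array or the combination array of line 1 (0.77 to 1.05, adjusted p up to 0.129). The call for VPA was lost without any 1 control, CHIR99021 or VPA array (0.72 to 1.08, adjusted p up to 0.214). That against CHIR99021 was lost without any 1 control or CHIR99021 array or the combination array of line 1 (0.68 to 1.08, adjusted p up to 0.197). H2-D1 had 0.47 and -0.14 with the combination, -0.41 and -0.69 with CHIR99021, 0.22 and -0.17 with VPA, against -0.41 and -0.41 in control. Its 0.57 ± 0.23 with the combination did not pass (adjusted p of 0.145, and 0.0316 with the line as a block), nor did its 0.71 ± 0.23 over CHIR99021 (adjusted p of 0.103, and 0.0214 with the block). A second H2-D1 probe, above background on all 8 arrays, gave larger differences from control, 0.99 with the combination and 0.61 with VPA. On that probe the combination lay 0.92 above CHIR99021. Class I heavy chain genes are close copies, so probes of H2-K1, H2-D1 and the H2-Q genes can read one another's transcripts.

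B2m, the light chain that all class I molecules share, had 1.05 and 0.74 with the combination, 0.84 and 0.48 with CHIR99021, 0.96 and 0.38 with VPA, against 0.72 and 0.63 in control. Its groups overlapped, and the control arrays stood well above 0 although both dyes held control RNA there. Nlrc5, the class I transactivator, stayed between -0.06 and 0.13 on the 8 arrays. NLRC5 acts with RFX proteins and NF-Y, which binds the Y box core CCAAT. That core was present on either strand for all 3 class I chain genes with a window (H2-K1, H2-D1 and B2m), for 16 of the 32 genes of the set (50%) and for 41.1% of all genes. The window of H2-K1 is shown, with the Y box core in capitals on either strand.
H2-K1, chr17:34000284-34000583, minus strand: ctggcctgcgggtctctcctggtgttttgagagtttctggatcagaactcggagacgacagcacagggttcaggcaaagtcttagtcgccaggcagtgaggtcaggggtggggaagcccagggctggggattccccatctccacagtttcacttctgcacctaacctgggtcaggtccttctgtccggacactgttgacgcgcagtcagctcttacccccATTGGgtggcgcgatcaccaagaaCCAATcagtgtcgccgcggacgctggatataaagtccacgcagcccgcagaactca

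The list of other class I genes, which holds further heavy chains, peptide-trimming enzymes and promoter-binding factors, had 23 genes tested, of which 3 rose and 4 fell with the combination, 1 fell with CHIR99021, and 2 rose and 3 fell with VPA, where 15.5%, 1.12% and 10.9% of all genes passed. The 3 that rose with the combination, named after their values were seen, were the heavy chain genes H2-M3 at 1.399 ± 0.33 (adjusted p of 0.0333), H2-Q4 at 0.79 ± 0.21 (adjusted p of 0.0488) and H2-T23 at 0.42 ± 0.11 (adjusted p of 0.04996). H2-Q1, a further class I heavy chain gene, had 0.38 and 0.05 with the combination, -0.94 and -1.14 with CHIR99021, 1.14 and 0.91 with VPA, against -0.03 and -0.07 in control. It fell by 0.99 with CHIR99021 (SE 0.15, adjusted p of 0.0409) and rose by 1.08 ± 0.15 with VPA (adjusted p of 0.0087), while the combination differed from control by 0.27 ± 0.15 (adjusted p of 0.279). Erap1, the aminopeptidase that trims peptides in the endoplasmic reticulum, fell by 0.85 with the combination (SE 0.12, adjusted p of 0.0070) and fell by 0.82 with VPA (SE 0.12, adjusted p of 0.0122). Psme1, a subunit of the proteasome activator PA28, fell by 0.58 (SE 0.09, adjusted p of 0.0074) and fell by 0.42 (SE 0.09, adjusted p of 0.0291) in the same comparisons. Tapbpl, a peptide editor related to tapasin, fell by 1.07 (SE 0.18, adjusted p of 0.0107) and fell by 0.83 (SE 0.18, adjusted p of 0.0340). Rfxank, a subunit of the RFX complex, fell by 0.42 with the combination (SE 0.08, adjusted p of 0.0166).

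Of the class II genes, 2 of 5 were tested, and 1 of them differed between the organoid lines. H2-Ab1, the class II beta chain, had log2 ratios of 3.08 and 0.00 with the combination, 0.38 and -0.00 with CHIR99021, 3.05 and 0.08 with VPA, against 0.11 and -0.24 in control (lines 1 and 2). It was high on the 2 arrays of line 1 that had VPA and between -0.24 and 0.08 on all 4 arrays of line 2. Pooled over lines the differences from control were 1.60 ± 1.18 with the combination and 1.62 ± 1.18 with VPA and did not pass (adjusted p of 0.432 and 0.453). A fit with terms for line and for line by VPA, added after the values were seen, put the effect of VPA at 0.16 in line 2 and 2.82 in line 1, a difference of -2.66 ± 0.12 (SE, limma adjusted p of 0.00045), where 1.20% of all genes passed. That fit left 2 residual degrees of freedom. Its p-value rests on how far arrays with and without CHIR99021 agreed within a line, not on a spread over lines or cultures. Brightness in Cy5 minus background was 4566 with the combination, 116 with CHIR99021, 3283 with VPA and 86 in control in line 1. In line 2 it was 47, 40, 35 and 40 in the same order of groups. Cy3, which held control RNA of line 1 on all 4 of its arrays, read 200 and 149 on the bright combination and VPA spots and 44 and 45 on the CHIR99021 and control arrays. What raised the Cy3 reading there was not tested. A second probe gave log2 ratios of 3.06 and 2.89 on those 2 arrays and -0.08 to 0.07 on the other 6, and the remaining probe gave 2.33 and 2.11.

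Cd74, the invariant chain that escorts class II molecules, had -0.07 and -0.06 with the combination, 0.04 and -0.01 with CHIR99021, 0.01 and -0.03 with VPA, against -0.06 and 0.07 in control, near background. Ciita was above background on the CHIR99021, VPA and control arrays of line 1 and on none of line 2. The brighter probe of H2-Aa was above background on the VPA array of line 1 alone, at a log2 ratio of -0.26 there. Its other probe was above background on the control array of line 1 alone. Of the 18 leukocyte markers, 10 were measured and none passed against control in limma. Of all genes, 15.5% did with the combination, 1.12% with CHIR99021 and 10.9% with VPA. Among the 10 markers 1 had an unadjusted p under 0.05, with VPA, beside 5006 of all 19255 genes. Psmb8, an immunoproteasome subunit, also differed between the lines. Its ratios were 0.49 and -0.16 with the combination, -0.87 and -0.11 with CHIR99021, 0.70 and -0.11 with VPA, against -0.22 and 0.06 in control. In the fit with line by VPA, its measured effect of VPA was -0.11 in line 2 and 1.14 in line 1, a difference of -1.25 ± 0.18 (limma adjusted p of 0.0329). The gene was dim in line 2 also without treatment: control RNA in Cy3 gave a brightness of 26 to 31 in line 2 and 660 to 744 in line 1 over the 4 arrays of each, and a second probe was above background on none of the line 2 arrays. Cy5 in line 2 read 28 to 40.5. A smaller response of Psmb8 to VPA in line 2 therefore cannot be told apart from a gene too dim to measure there. For line by CHIR99021 no member and 0% of all genes passed in limma, and 1 member, Rsad2, had an unadjusted p under 0.05 (0.0079). How many of all genes did so is not given here.

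**Figure D4:**
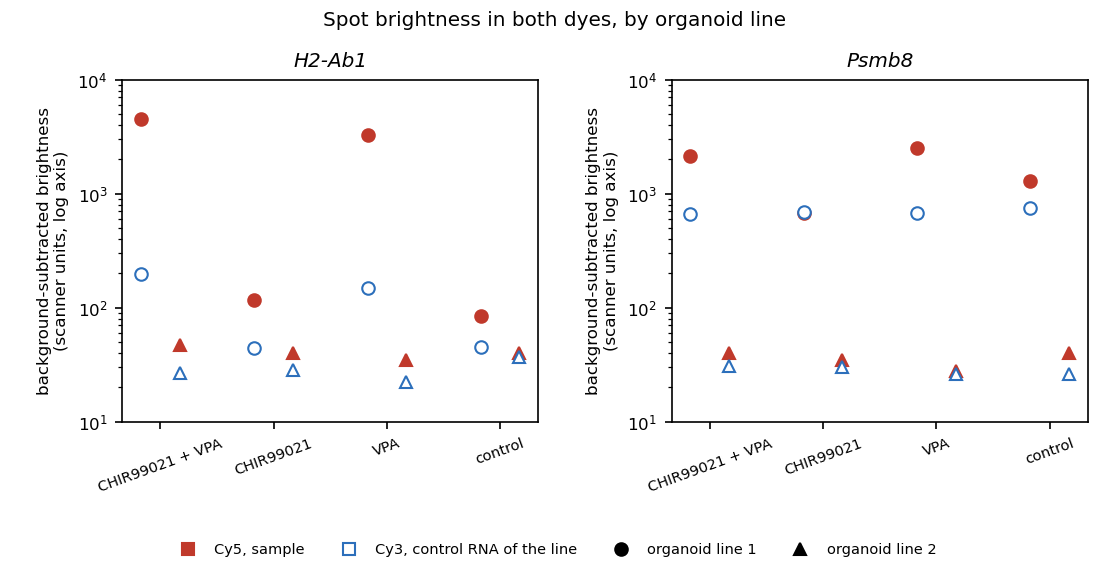
Background-subtracted spot brightness (log axis) of H2-Ab1 and Psmb8 on the 8 arrays by group, filled red for Cy5 (the sample) and open blue for Cy3 (control RNA of the line), circles for organoid line 1 and triangles for line 2. H2-Ab1 reaches 4566 and 3283 in Cy5 on the combination and VPA arrays of line 1 and stays at 35 to 47 in line 2, and Psmb8 lies at 683 to 2501 in line 1 and 28 to 40 in line 2.

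Untreated organoids of the lines already differed in several of these genes. The Cy3 channel gave 4 readings of control RNA per line, and with each array scaled to its 75th percentile 6 of the 34 genes differed over 2-fold between lines, where 3.48% of all genes did. Psmb8 was lower in line 2 than in line 1, and no fold is given because its line 2 spots lie close to background. Oas1a was 3.37-fold, Psmb9 2.29-fold and Igtp 2.18-fold lower in line 2, and Oasl1 was 2.19-fold and Ifitm3 2.04-fold higher. Each line gave 1 control RNA, so these are differences between 2 RNAs with no spread over cultures. Oasl1, a relative of the OAS enzymes, read differently in each line. It had 0.69 and -0.72 with the combination, 0.51 and -0.57 with CHIR99021, 0.73 and -0.69 with VPA, against 0.15 and 0.20 in control, so that every treated array lay above its control in line 1 and below it in line 2. The lines were hybridised on 1 slide each, so line and slide cannot be told apart, and each group kept 1 position on the slide.

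The widest range among the 6 lists set beside the genes was that of class II processing, -3.52 to 2.57 with the combination. Of 10 other class II genes tested, 4 rose and 1 fell with the combination, 0 passed with CHIR99021, and 3 rose and 1 fell with VPA, where 15.5%, 1.12% and 10.9% of all genes passed. Ctss, which encodes cathepsin S, the protease that trims the invariant chain in leukocytes, had log2 ratios of -3.33 and -3.50 with the combination, -0.36 and -0.16 with CHIR99021, -2.50 and -3.08 with VPA, against 0.10 and 0.10 in control. It fell by 3.52 with the combination (SE 0.19, adjusted p of 0.00036) and fell by 2.90 with VPA (SE 0.19, adjusted p of 0.00099). Ctsl, which encodes cathepsin L, its counterpart in thymic epithelium, had 2.29 and 2.73 with the combination, 0.96 and 1.09 with CHIR99021, 1.42 and 2.11 with VPA, against -0.10 and -0.00 in control. It rose by 2.57 ± 0.24 with the combination (adjusted p of 0.0018) and by 1.81 ± 0.24 with VPA (adjusted p of 0.0083), and lay 1.08 ± 0.24 above control with CHIR99021 (adjusted p of 0.118). For both cathepsins the arrays with VPA did not overlap those without it. Lgmn, the lysosomal protease legumain, rose by 1.46 ± 0.25 with the combination (adjusted p of 0.0121) and by 1.36 ± 0.25 with VPA (adjusted p of 0.0233). H2-DMa, a chain of the peptide exchanger H2-DM, rose by 0.93 ± 0.12 in both comparisons (adjusted p of 0.0042 with the combination and 0.0068 with VPA).

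**Figure D5:**
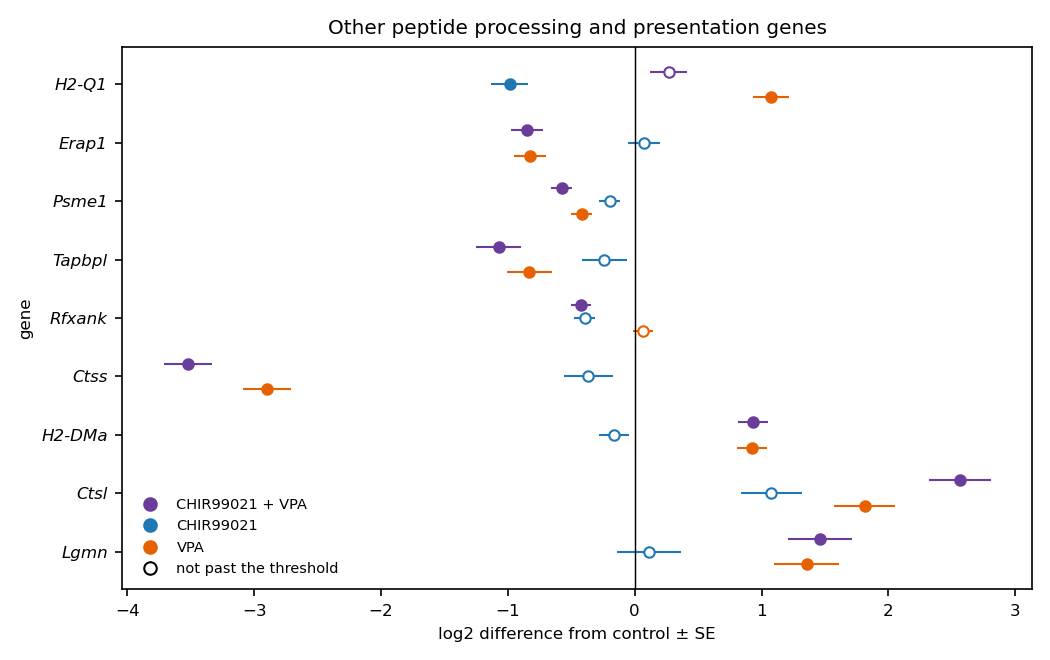
Log2 difference from control with its standard error for 9 further genes of peptide processing and presentation (rows), with the combination in purple, CHIR99021 in blue and VPA in orange, 2 arrays per group; filled points passed an adjusted p of 0.05. Ctss lies lowest at -3.52 with the combination and Ctsl highest at 2.57, and H2-Q1 lies at -0.99 with CHIR99021 and 1.08 with VPA.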

How the data were processed

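RNA of 8 organoid samples was hybridised to 2-colour Agilent arrays, 2 per group. Scanner files hold Cy5 and Cy3 spot and background intensity, deposited as Agilent Feature Extraction 10.5.1.1 wrote it per the file headers, and a log10 ratio of red over green per the file headers. The series' value table, deposited by the authors, equals that ratio turned to log2.

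Here Cy5 and Cy3 intensities were background corrected (normexp, offset 50) and loess normalised within arrays in limma 3.58.1 (R 4.3.3). Spots flagged as outliers were left out, which removed 79 genes. Genes were named by RefSeq accession, with the brightest probe per gene, and kept where each array of some group had a Cy5 spot well above background. Of the 19255 genes tested, 13973 had a symbol. The rest are probe accessions without a symbol, each counted as a gene, and more than 1 of them may belong to the same gene. Shares of all genes include them. One fit of 4 groups gave 6 comparisons with 4 residual degrees of freedom and Benjamini-Hochberg adjustment over 19255 genes. Scripts were tested on simulated data. The members and lists were chosen with earlier results of these data known. Values on every array were given for members past the threshold and, per role, the 3 with the smallest adjusted p against control; of each further list, up to 4 per comparison with the smallest adjusted p. Replicate numbers mark the organoid line per the labels, so same-numbered arrays are paired; their deviations correlated at 0.122 to 0.755 over 6 pairs of groups.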

Additional observations from a re-analysis of the deposited data

Results flagged for a closer look

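The measured effect of VPA differed between the organoid lines for H2-Ab1 and Psmb8, in the fit with a term for line by VPA. For Psmb8 this cannot be told apart from a gene too dim to measure in line 2. For H2-Ab1 the line 2 effect minus the line 1 effect was -2.66 on the log2 scale (limma adjusted p of 0.00045). For Psmb8 it was -1.25 (adjusted p of 0.0329), with line 2 spots close to background. These p-values rest on agreement of arrays within a line, with 2 residual degrees of freedom, and do not measure a spread over lines or cultures.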

How the results depend on the processing

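Each count of genes called among the 34 was repeated with other settings. In 390 repeats of the 20 calls 278 kept the call, 112 lost it and none changed direction. Many repeats used the same ratios of the groups compared and changed only the spread, the filter or arrays of other groups. In those the direction could not change, so the lack of reversals says little. Treated ratios tested against 0 gave 11 genes for CHIR99021 (0 in the report) and 13 for VPA (4 in the report). That setting does not subtract the control arrays, so what control RNA read against control RNA stays in the values. Those control means were, for example, 0.68 for B2m and -0.42 for Tap2. For this and the other settings apart from the block, the number of all genes called is not given here. Fitting only the groups compared gave 5 for the combination (8 in the report), 3 for CHIR99021, 1 for the combination against CHIR99021 (7 in the report) and 0 for the combination against VPA (1 in the report). The background model fitted on all spots gave 4 against CHIR99021 and 0 against VPA, and Agilent's log ratio gave 4 and 0, and 2 for VPA against control. The mean of a gene's probes gave 2 for VPA, and no filter on dim probes gave 5 for the combination. With each array left out in turn, counts lay between 2 and 7 for the combination, 0 to 1 for CHIR99021, 0 to 7 for VPA, 1 to 7 for the combination against CHIR99021, and 0 to 0 against VPA. In the fits without 1 array the lone sample of a group is assumed to vary like the others. The departure from additivity gave 0 genes in every fit run. With a replicate block for the organoid line the counts were 11, 0, 6, 9, 1 and 0, in the order combination, CHIR99021, VPA, combination against CHIR99021, combination against VPA and departure from additivity. Over all genes the block called 4815, 557, 3745, 3414 and 613 for the first 5, beside 2989, 216, 2090, 1930 and 215. Leaving out spots with an outlying local background as well, a setting chosen after seeing the data, gave 7, 0, 4, 7, 1 and 0 of 28 genes tested. The number of arrays limits precision, and dim probes such as those of Ifit2 and Rsad2 lie close to background.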
